A study of Arabidopsis thaliana with 4 samples.

Results

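The comparison described here is that of as2-1 with wild-type Col-0 shoot apices when both were grown on an inhibitor of DNA topoisomerase I (TOP1). It rests on 2 of the 4 arrays of the series, the array titled as2-1 10H-CPT and the array titled Col-0 10H-CPT, chosen by their titles. The plants were Arabidopsis thaliana with the as2-1 mutation, a mutant allele of the AS2 gene, against wild-type Col-0. They grew for 14 days on Murashige and Skoog agar with 16 hours of light a day and 8 hours of darkness. The medium of these 2 samples held 10-hydroxycamptothecin (10H-CPT), dissolved in DMSO, at a dose that the labels do not give. The other 2 arrays of the series, as2-1 and Col-0 without the inhibitor (labelled DMSO), share no array with this pair and are set beside it. Shoot apices that bore leaf primordia were harvested, and the labels do not say how many plants went into a sample. Each group has 1 array, so no difference between genotypes has a replicate check, no test is possible, and every ratio below is that of 2 single arrays.

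AS2 encodes a nuclear protein found only in plants. It acts with the MYB protein AS1 to keep class 1 KNOX genes and the abaxial auxin response factor genes ETT/ARF3 and ARF4 repressed in leaf primordia, which is needed for a flat leaf with distinct upper and lower sides. TOP1 relaxes supercoiled DNA, and camptothecins such as 10H-CPT trap it on DNA. In Arabidopsis, loss of TOP1 activity is known to disturb meristems and organ polarity.

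The signals are MAS5 intensities, one for each probe set, on a linear scale. The 40th percentile of the signals on the 4 arrays, 46.6, served as a floor: dimmer signals were raised to it before ratios were taken. A probe set counted as measured when at least 1 of the 2 signals on 10H-CPT lay above the floor. That left 14147 of 22746 probe sets, or 62.2%. Of the probe sets let in, 324 had a brighter signal no more than 10% above the floor, and 269 of those left out came as close to it from below. Median signals were 87.5 for as2-1 on 10H-CPT, 86.0 for Col-0 on 10H-CPT, 88.3 for as2-1 on DMSO and 86.8 for Col-0 on DMSO. A ratio with 1 signal at the floor is only a bound and is written as "at least" so many fold, or as a log2 ratio "or higher" or "or lower".

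The gene table used here assigned 1 gene to 13513 probe sets and several genes to 503, and 8730 are unnamed here. AS2, AS1, the TOP1 genes, STM, the KNOX genes, ARF3 and ARF4 were among the unnamed, so neither the mutated gene nor its best-known targets were analysed here. As a check of the tissue label, YAB3, which marks the abaxial side of leaf primordia, had signals of 228 in as2-1 and 240 in Col-0 on 10H-CPT; on DMSO it had 180 in as2-1 and 254 in Col-0. CLV3, which marks the stem cells of the shoot meristem, lay below the floor on all 4 arrays, with signals of 1.1 in as2-1 and 7.9 in Col-0 on 10H-CPT. The root markers EXPA7 and LBD16 were also below it throughout, at 2.7 to 42.3. The marker lists were covered in small part: 1 of 6 genes was named for the shoot meristem, 1 of 6 for leaf primordia, 2 of 7 for the root and 0 of 5 for flower organs.

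With the inhibitor, the as2-1 signal exceeded that of Col-0 by 2-fold or more for 381 probe sets, 2.69% of those measured, and fell short of it by as much for 222, or 1.57%. Higher probe sets made up 63.2% of those past 2-fold. Most transcripts differed little: 12032 of the 14147 lay within 1.5-fold, and the median log2 ratio was -0.01. Among the higher probe sets the median difference was 2.56-fold and 66 reached 4-fold, while among the lower ones it was 2.37-fold and 19 reached 4-fold. In 65 of the higher and 37 of the lower probe sets 1 signal was at the floor. Just outside 2-fold, between 1.8-fold and 2-fold, lay 167 higher and 128 lower probe sets, and just inside it, up to 2.2-fold, lay 93 and 69. In whole shoot apices, a lower signal from fewer cells of a type cannot be told apart from one due to less RNA per cell.

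**Figure D1:**
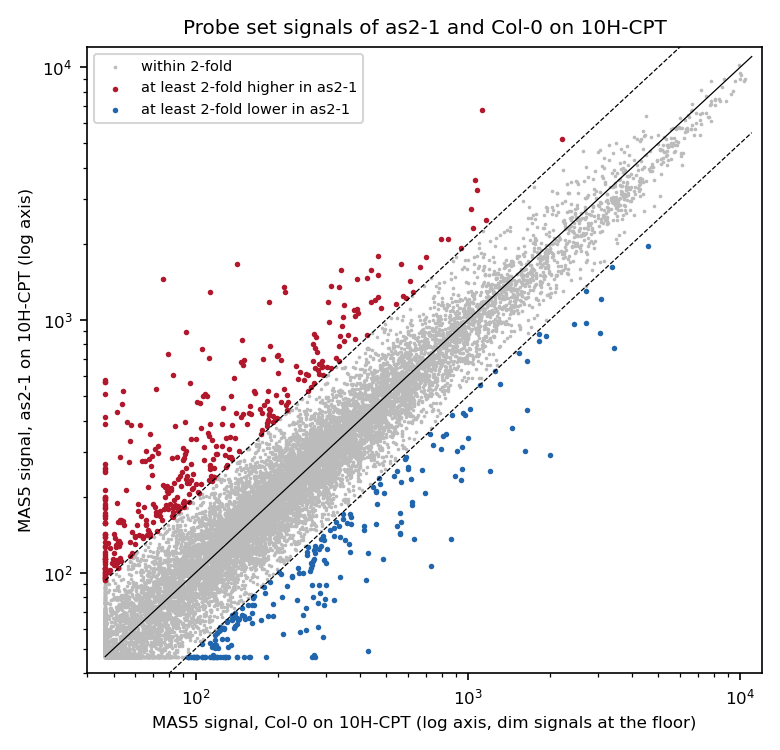
MAS5 signals of each of the 14147 measured probe sets in as2-1 on 10H-CPT (vertical log axis) and Col-0 on 10H-CPT (horizontal log axis), with signals below the floor of 46.6 drawn at the floor. The solid line marks equal signals and the dashed lines 2-fold, with 381 probe sets above and 222 below them.

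The shares past 2-fold were similar at all brightness levels. Among the brightest tertile of measured probe sets, by the mean of both signals, 2.44% were higher and 1.36% were lower in as2-1. In the dimmest tertile these shares were 2.59% and 1.76%. Differences of 2-fold were thus found among bright and dim transcripts alike under this floor.

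Of the 381 higher probe sets 180 had 1 named gene, and of the 222 lower ones 96, against 7678 named among all measured, which gives 2.34% higher and 1.25% lower for named probe sets. The named gene with the highest ratio was PUB19 (264217_at), a U-box E3 ubiquitin ligase known from drought and abscisic acid signalling. Its signal was 566 in as2-1 against 4.3 in Col-0 on 10H-CPT, and 34.0 against 4.8 on DMSO. Only as2-1 on 10H-CPT was above the floor, so the difference there was at least 12.1-fold, and none can be given on DMSO. Of the other measured U-box ligase genes, PUB49 had a log2 ratio of -0.05 and PUB43 one of 0.00472, while the floor bounded PUB24 at 0.54 or higher and PUB26 at -0.05 or lower.

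AT2G47780 (266503_at), of the rubber elongation factor family whose members coat lipid droplets, had signals of 524 in as2-1 against 54.4 in Col-0 on 10H-CPT, a 9.62-fold difference. On DMSO it had 132 against 44.7, at least 2.84-fold. Another member of that family, AT1G67360 (264968_at), which was singled out after its values were seen, had 697 in as2-1 against 206 in Col-0 on 10H-CPT. For both genes the order of the arrays was the same: as2-1 on 10H-CPT was by far the brightest, and Col-0 was dimmer than as2-1 on DMSO as well.

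A pair of AP2/ERF transcription factor genes stood among the 15 highest ratios. AT4G28140 (253799_at) had a signal of 258 in as2-1 against 11.9 in Col-0 on 10H-CPT, and 48.8 against 15.1 on DMSO. AT1G64380 (259793_at) had 212 against 32.6 on 10H-CPT, and 53.3 in as2-1 on DMSO. In Col-0 both genes were under the floor with and without the inhibitor. The differences in its presence were bounded at 5.53-fold or more for AT4G28140 and 4.54-fold or more for AT1G64380.

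Starch genes were also near the top. QQS (256940_at), a gene found only in Arabidopsis thaliana whose loss raises leaf starch, had 385 in as2-1 against 62.5 in Col-0 on 10H-CPT, a 6.16-fold difference. On DMSO it had 454 against 34.7, at least 9.74-fold, so its genotype difference was there without the inhibitor too. APL3 (252888_at), a large subunit of the ADP-glucose pyrophosphorylase that makes the precursor of starch, was 5.80-fold higher on 10H-CPT (333 in as2-1 against 57.4 in Col-0) and 3.07-fold higher on DMSO (170.5 against 55.6). Of the 24 genes of the starch list 4 were measured, QQS and APL3 among them, with a median log2 ratio of 1.49. That median falls in the gap between QQS and APL3 and the others, which were closer to equal. PWD, a kinase that phosphorylates starch, had a log2 ratio of 0.45, and DPE1, the plastid disproportionating enzyme, one of 0.04.

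The remaining genes of the 15 highest ratios fall into other classes or have no role that is given here. AT3G05640 (258901_at), a type 2C protein phosphatase, had 694 in as2-1 against 151 in Col-0 on 10H-CPT and 309 against 157 on DMSO. AT2G41190 (267080_at), of the amino acid transporter family, had 471.5 against 101 on 10H-CPT and 146.5 against 57.6 on DMSO. In both, as2-1 on DMSO lay between Col-0 and as2-1 on 10H-CPT. AT1G20070 (261247_at) was 9.73-fold higher in as2-1 on 10H-CPT, AT4G35720 8.43-fold, AT1G80130 7.08-fold and AT1G73390 5.60-fold, while AT5G66650 had a log2 ratio of 2.17. AT5G53710 was at least 5.76-fold higher. AT3G28220 (256577_at), a TRAF-domain protein gene, was 4.68-fold higher on 10H-CPT and below the floor in both genotypes on DMSO.

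**Figure D2:**
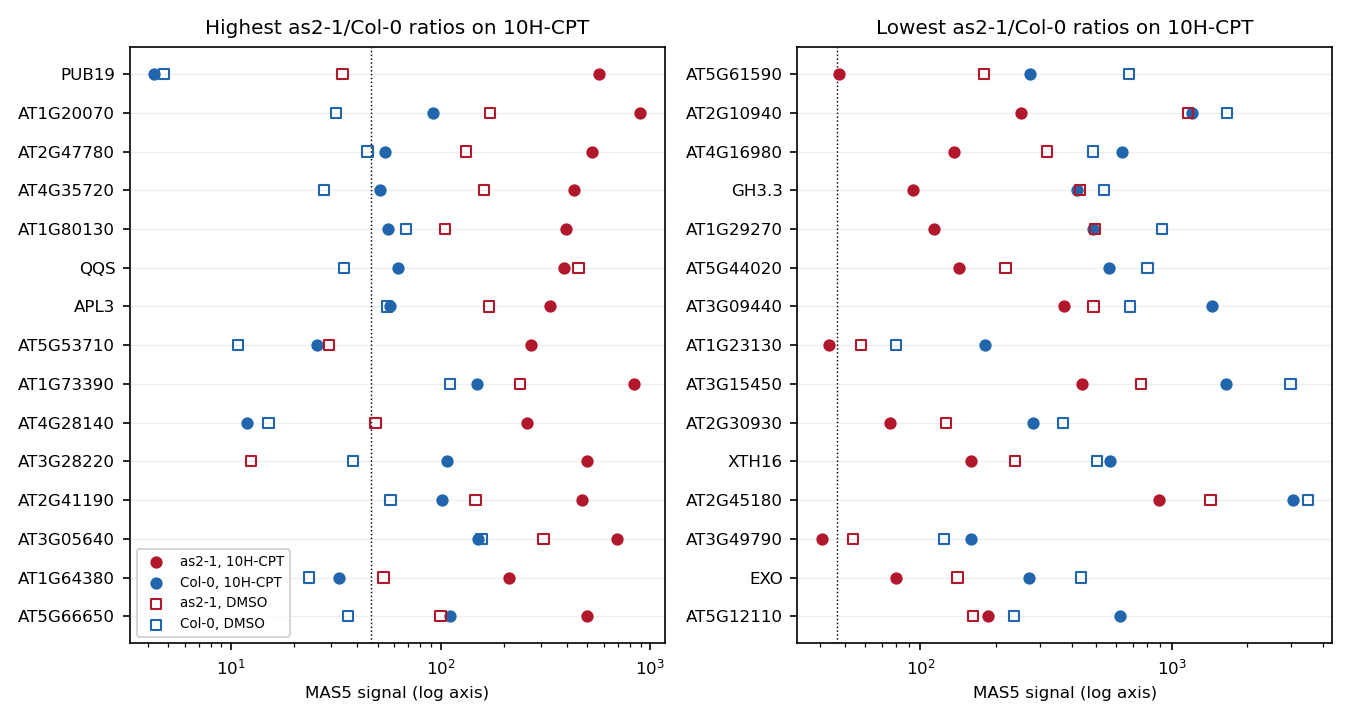
MAS5 signals (log axis) on all 4 arrays of the 15 named genes with the highest and the 15 with the lowest ratio of as2-1 to Col-0 on 10H-CPT; the dotted line marks the floor of 46.6. PUB19 has the highest ratio on the left panel, with 566 in as2-1 on 10H-CPT and all other arrays under the floor. AT5G53710, with 269 in as2-1 on 10H-CPT, is also under the floor on all other arrays.

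Among the lower genes, the lowest ratio was that of AT5G61590 (247540_at), listed in the reference as DEWAX, an AP2/ERF repressor of wax biosynthesis genes. It had a signal of 47.2 in as2-1 against 273 in Col-0 on 10H-CPT, a 5.79-fold difference, and of 179 against 675 on DMSO, 3.76-fold. The signal in as2-1 on 10H-CPT was barely above the floor. In each treatment as2-1 was the lower genotype.

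GH3.3 (245076_at), an enzyme that joins the auxin indole-3-acetic acid to amino acids, had 93.7 in as2-1 against 421 in Col-0 on 10H-CPT, a log2 ratio of -2.17, and 430.5 against 537 on DMSO, one of -0.32. The 3 other arrays thus lay near each other and as2-1 on 10H-CPT lay below them. GH3.5, which has the same activity, had a log2 ratio of -0.57 on 10H-CPT. The other 4 named members of the IAA and GH3 list (GH3.1, IAA20, IAA29 and IAA30) were below the floor in both genotypes on 10H-CPT.

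Of the other lowest ratios, 4 were those of the following genes. AT2G10940 (265400_at), of the family of seed storage and lipid transfer proteins, had 252 in as2-1 against 1203 in Col-0 on 10H-CPT, and 1162 against 1666 on DMSO. AT2G45180 (266123_at), of the same family, had 891 against 3044 on 10H-CPT and 1428 against 3482 on DMSO. AT4G16980 (245318_at), of the arabinogalactan protein family, had 136 against 636 on 10H-CPT and 318 against 488 on DMSO. A second probe set of AT4G16980 was below the floor on both 10H-CPT arrays. EXO (255064_at), an extracellular protein gene induced by brassinosteroid, had 80.0 in as2-1 against 270 in Col-0 on 10H-CPT and 140 against 437 on DMSO. In all 4 of these genes as2-1 was the dimmer genotype in both treatments.

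Other genes of the 15 lowest ratios included AT3G09440 (258979_at), a cytosolic HSP70 chaperone, with 373 in as2-1 against 1447 in Col-0 on 10H-CPT and 488 against 684 on DMSO. For this gene Col-0 on 10H-CPT was the array that stood above the rest. AT5G12110 (250304_at), a subunit of translation elongation factor 1B, was likewise brightest in Col-0 on 10H-CPT, with 186 against 623 on 10H-CPT and 162.5 against 235.5 on DMSO. AT5G44020 (249073_at), an acid phosphatase of the HAD superfamily, was 3.93-fold lower on 10H-CPT and 3.67-fold lower on DMSO. AT1G29270 was 4.29-fold lower on 10H-CPT and AT2G30930 3.70-fold. AT1G23130 was at least 3.88-fold and AT3G49790 at least 3.41-fold lower.

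Lists of genes for pathways of the shoot were read against the shares of 2.69% and 1.57% past 2-fold among all measured probe sets. Only 47 of the 463 list members had a named and measured probe set, so each list is covered in part. Of the flavonoid and anthocyanin list, 8 of 22 genes were named, 7 were measured and 6 of these exceeded 2-fold in favour of as2-1 on 10H-CPT, with 0 the other way. Their median log2 ratio was 1.44 on 10H-CPT and 0.28 on DMSO, where the medians of all measured probe sets were -0.01 and 0.01.

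DFR (249215_at), dihydroflavonol reductase and the first enzyme of the branch to anthocyanins, had a signal of 698 in as2-1 against 176 in Col-0 on 10H-CPT, and 87.2 against 61.6 on DMSO. It was 3.95-fold higher on 10H-CPT and 1.42-fold higher on DMSO. Both genotypes were brighter with the inhibitor than without it, and as2-1 with the inhibitor was the brightest array.

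The enzymes that decorate anthocyanins followed the same order on 10H-CPT. UF3GT (248185_at), which adds xylose to the anthocyanin's glucose, had 264 in as2-1 against 68.8 in Col-0, a 3.84-fold difference. UGT75C1 (AT4G14090, 245624_at), the anthocyanin 5-O-glucosyltransferase, had 338 against 96.4, and UGT78D2, a flavonoid 3-O-glucosyltransferase, had 444.5 against 186. The malonyltransferase 5MAT (AT5MAT in the reference, 256924_at) had 137 against 50.5, a 2.72-fold difference.

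CHIL (250794_at), a chalcone isomerase-like protein that raises the output of the pathway, had 391 in as2-1 against 183 in Col-0 on 10H-CPT, a 2.13-fold difference. UGT78D1, a flavonol 3-O-rhamnosyltransferase, had 822 against 549.5 and did not reach 2-fold, with a log2 ratio of 0.58. On DMSO, with the floor applied, the 7 genes lay between log2 ratios of -0.01 and 0.50, and 3 of them had 1 signal below the floor. BAN, an enzyme of proanthocyanidin synthesis that is known from the seed coat, lay below the floor on all 4 arrays. AT1G23390 (262986_at), an F-box protein that targets chalcone synthase for breakdown, was 3.06-fold lower in as2-1 on 10H-CPT (120 against 368) and lower on DMSO too (157 against 488); it is in no list and was singled out after its values were seen.

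Of the cold and abscisic acid list, 4 genes were measured and 2 exceeded 2-fold in favour of as2-1 with the inhibitor; the median log2 ratio was 1.14. COR47 (259570_at), a dehydrin, had 1460 in as2-1 against 425 in Col-0 on 10H-CPT, and 635 against 403 on DMSO. COR15A (263497_at), a chloroplast protein that protects membranes in the cold, had 180 against 42.3 on 10H-CPT, a difference of at least 3.85-fold, and 112.5 against 111 on DMSO. Here Col-0 on 10H-CPT was the only array below the floor. Its close relative COR15B had a log2 ratio of 0.29 and the dehydrin LTI30 one of 0.50. HIS1-3 (265817_at), a linker histone induced by drought that was singled out after its values were seen, had 502 in as2-1 against 135 in Col-0 on 10H-CPT and 182.5 against 146 on DMSO.

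WRKY53 (254231_at), a transcription factor that promotes leaf senescence, was 1 of 2 measured genes of the list of rapid stress transcription factors. It had 199 in as2-1 against 35.7 in Col-0 on 10H-CPT, a difference of at least 4.26-fold, and 104 against 77.2 on DMSO. The other, the zinc finger gene ZAT10 (STZ in the reference), was near the floor, with 38.3 in as2-1 against 48.5 in Col-0 on 10H-CPT. GI (264211_at), a clock protein that promotes flowering and the only measured clock gene, had 64.9 in as2-1 against 173 in Col-0 on 10H-CPT and 413 against 548 on DMSO. AT3G15450 (258402_at), the only measured gene of the dark-inducible list, had 442 in as2-1 against 1650.0 in Col-0 on 10H-CPT and 757 against 2974 on DMSO, 3.74-fold and 3.92-fold lower.

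The glucosinolate genes that were measured, by contrast, were nearly level between the genotypes on 10H-CPT. They were 3 of 22 in the methionine-derived list and 1 of 15 in the tryptophan-derived list. BCAT4 (257021_at), the aminotransferase that starts the elongation of methionine, had 6324 in as2-1 against 6468 in Col-0 on 10H-CPT, a log2 ratio of -0.03. On DMSO it had 2212 in as2-1 against 401 in Col-0, a log2 ratio of 2.47, so both genotypes were brighter with the inhibitor. GSTU20 and UGT74C1 had log2 ratios of 0.02 and 0.13 on 10H-CPT, and both were at 1.49 on DMSO. UGT74B1, the only measured gene of the tryptophan-derived list, was 1.07-fold higher on 10H-CPT and 2.15-fold higher on DMSO. None of the 4 measured glucosinolate genes differed by 2-fold between the genotypes in the presence of the inhibitor.

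**Figure D3:**
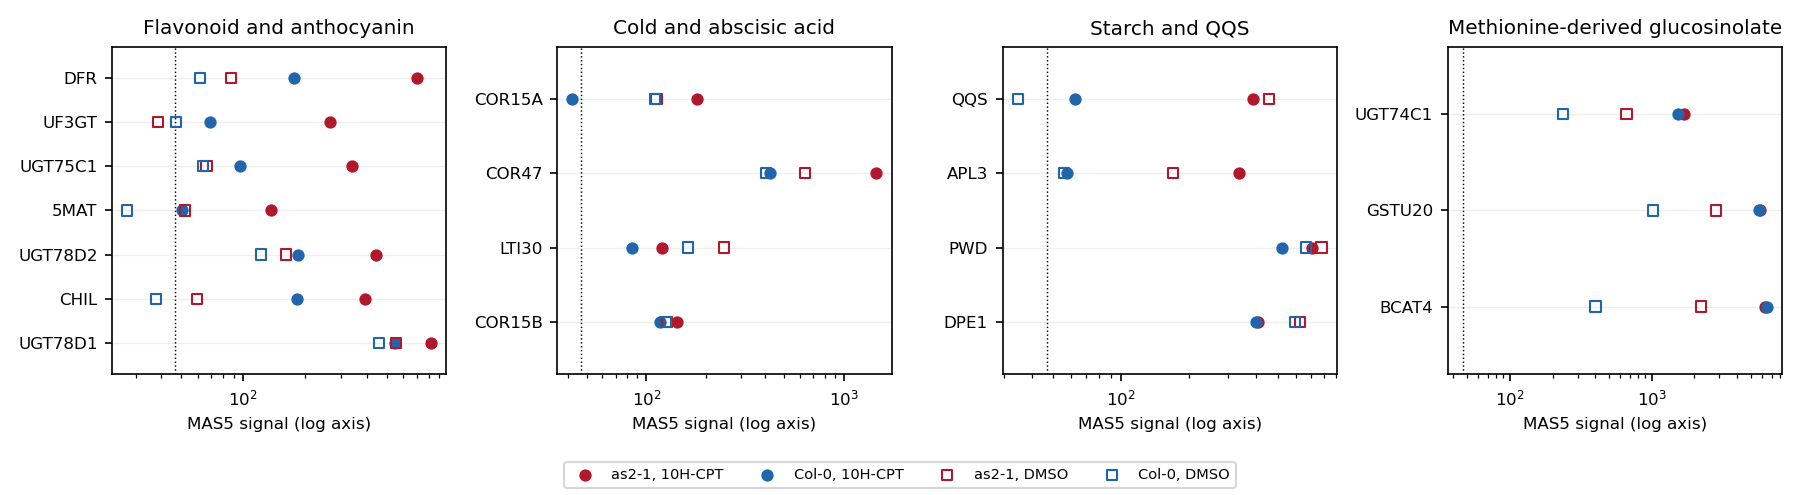
MAS5 signals (log axis) on all 4 arrays of the measured genes of 4 lists; the dotted line marks the floor of 46.6. The anthocyanin genes are brightest in as2-1 on 10H-CPT (DFR at 698 against 176 in Col-0), while BCAT4, GSTU20 and UGT74C1 have nearly equal signals in both genotypes on 10H-CPT.

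Of the 14 leaf polarity genes 3 were measured, and none passed 2-fold. YAB5, an abaxial YABBY gene, had 138 in as2-1 against 75.7 in Col-0 on 10H-CPT and 114 against 63.8 on DMSO. PHV (261800_at), an adaxial homeodomain transcription factor gene, had 409 against 640 on 10H-CPT and 444 against 490 on DMSO. The log2 ratios on 10H-CPT were 0.86 for YAB5, -0.65 for PHV and -0.08 for YAB3. AGO7, an argonaute needed for the production of the small RNAs against ARF3 and ARF4, had 70.3 against 88.4 on 10H-CPT and 137 against 69.0 on DMSO.

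Of the 22 cell wall remodelling genes 5 were measured, with a median log2 ratio of 0.22 on 10H-CPT. EXPA15 and EXPA4 passed 2-fold upwards in as2-1 and EXPA8 downwards, and their values are given with the expansins. The lists that follow had few measured members on 10H-CPT and none past 2-fold. The cell division genes AUR1, a mitotic kinase, and MCM7 (PRL in the reference), a helicase subunit of DNA replication, had log2 ratios of -0.47 and -0.61. Of the 3 iron genes IMA1 was at -0.28 and PYE at -0.06, and the floor bounded BHLH101 at -0.58 or lower. The 3 photosynthesis genes lay between -0.43 and -0.02. PDF1.2 was at -0.91, THI2.1 at 0.22 and SAG101 at 0.28. With 1 signal under the floor, ARR15 was at 0.47 or higher and HSA32 at -0.59 or lower. No gene of the DNA damage, phosphate, sulfur, nitrate, floral or meristem list was both named and measured.

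Gene families were also followed as a whole, by the symbols and synonyms of the reference, which can miss members. The families were chosen after the values were seen. Their counts are set beside the shares of 2.69% higher and 1.57% lower among all measured probe sets. Of 9 measured expansin and expansin-like genes, which loosen the cell wall, 3 passed 2-fold upwards in as2-1 on 10H-CPT and 3 downwards. EXPA15 (266770_at) had 1220 in as2-1 against 593 in Col-0 on 10H-CPT, and 554 against 258 on DMSO. EXPA4 and EXPB3 were 2.05-fold and 2.03-fold higher. EXPA8 (255822_at) had 42.4 against 150.5 on 10H-CPT, at least 3.23-fold lower, and 141 against 137 on DMSO. EXLB1 was at least 2.76-fold and EXLA1 2.29-fold lower. EXLA2, EXPA20 and EXPA9 lay above 0 without reaching 2-fold.

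In the xyloglucan endotransglucosylase/hydrolase and cellulose synthase-like families, 4 genes passed 2-fold, each of them downwards in as2-1. Among all measured probe sets 1.57% were lower by as much. XTH16 (257203_at), a xyloglucan endotransglucosylase/hydrolase, had 159 in as2-1 against 570.1 in Col-0 on 10H-CPT and 239 against 505 on DMSO. EXGT-A3, of the same family, was 2.05-fold lower on 10H-CPT, while XTH19 and XTH32 had log2 ratios of 0.01 and 0.57. Of 6 cellulose synthase-like genes 2 were at least 2-fold lower and 5 had a log2 ratio below 0. CSLC04 (257071_at), which makes the backbone of xyloglucan, had 121 against 257 on 10H-CPT and 439 against 421 on DMSO. CSLA03, a mannan synthase gene, was at least 2.55-fold lower on 10H-CPT.

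Among 9 measured chaperone genes found by symbol or synonym, of several chaperone types, 3 passed 2-fold downwards in as2-1 on 10H-CPT, 0 upwards, and 8 had a log2 ratio below 0. The HSP70 gene AT3G09440, 3.88-fold lower on 10H-CPT, is not in this count. Over all measured probe sets 1.57% were lower by as much, 2.69% were higher, and the median log2 ratio was -0.01. The family's median log2 ratio was -0.65 on 10H-CPT and -0.07 on DMSO. Cpn60beta2 (256983_at), a subunit of the chloroplast chaperonin, had 865 in as2-1 against 1926 in Col-0 on 10H-CPT and 622 against 886 on DMSO. Hop3, a co-chaperone that links HSP70 and HSP90, was at least 2.17-fold lower, and the immunophilin ROF2 (AT5G48570) 2.07-fold lower. Hsp70-2 had 263 against 456 on 10H-CPT, and 178 against 138 on DMSO. For Cpn60beta2, Hop3, ROF2 and Hsp70-2, Col-0 on 10H-CPT was the brightest of the 4 arrays.

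Of 24 measured genes with a UDP-glycosyltransferase symbol or synonym in the reference, 3 passed 2-fold in as2-1 on 10H-CPT, each of them upwards. UGT75C1, with a log2 ratio of 1.81, and UGT74C1 carry no such symbol there and are not in this count. The 3 genes were UF3GT, UGT78D2 and UGT87A2, the last with 387 in as2-1 against 154 in Col-0 on 10H-CPT and 231 against 227 on DMSO. The chloroplast genome gave a small shift in one direction. Of its 66 measured probe sets 62 had a log2 ratio below 0 on 10H-CPT, and none passed 2-fold. Their median was -0.24, against -0.01 over all measured probe sets. On DMSO the median of the chloroplast probe sets was -0.04. These genes are transcribed together in long units, so their probe sets are not independent. Of 16 serine carboxypeptidase-like genes 1 was past 2-fold upwards and 2 downwards, and each of the other families had at most 1 member past 2-fold in a direction.

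**Figure D4:**
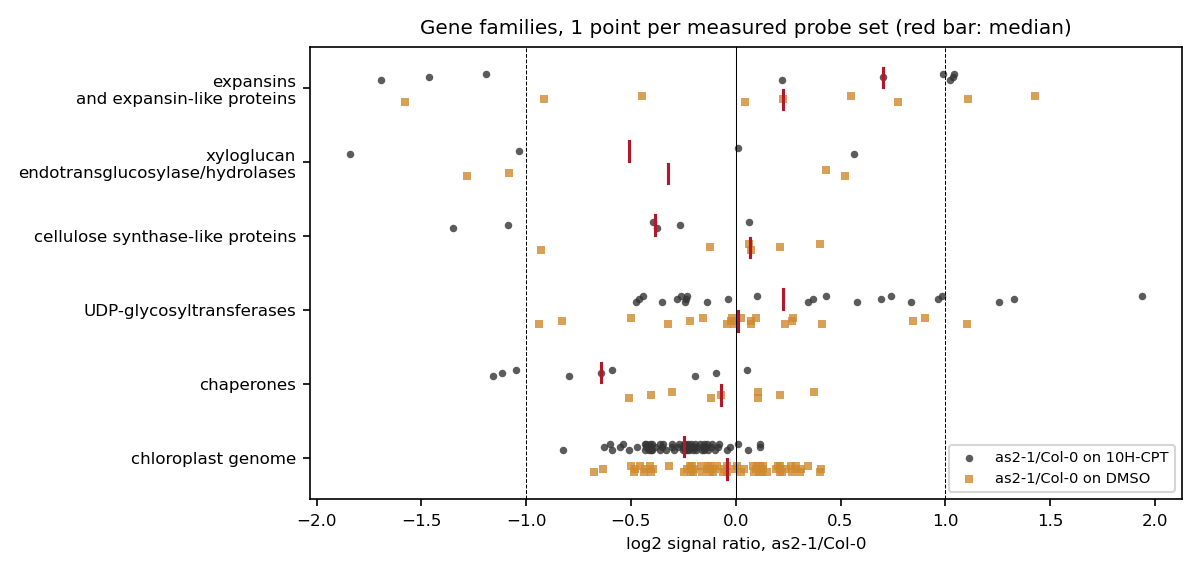
Log2 ratios of as2-1 to Col-0 for each measured probe set of 6 gene families, on 10H-CPT (circles) and on DMSO (squares, where measured), with the median as a red bar and 2-fold as dashed lines. Expansin genes lie on both sides, the chaperones have a median of -0.65 on 10H-CPT, and chloroplast genes cluster just below 0.

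The DMSO pair, which shares no array with the pair on 10H-CPT, shows how far the genotype differences were present without the inhibitor. Without the inhibitor the as2-1 signal was 2-fold or more above that of Col-0 for 1.04% of 14069 measured probe sets and as far below it for 1.09%. Of the 381 higher probe sets 353 were measured on DMSO, and 282 of these, or 79.9%, also had a higher signal in as2-1 there. Of the 222 lower ones 220 were measured, and 202, or 91.8%, also had a lower signal. Over all 13629 probe sets measured in both pairs, 51.4% had a higher signal in as2-1 on DMSO.

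The differences on DMSO were smaller. The median log2 ratio of the higher probe sets was 1.35 on 10H-CPT and 0.41 on DMSO, and that of the lower ones was -1.25 and -0.61. The probe sets were picked by their ratio on 10H-CPT, so a smaller median in the other pair is a description and no result about the inhibitor. A difference of at least 1.5-fold in the same direction on DMSO was found for 35.4% of the higher and 51.8% of the lower probe sets, against 4.59% and 4.06% of all. It was in the opposite direction for 19 of the higher and 0 of the lower ones.

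**Figure D5:**
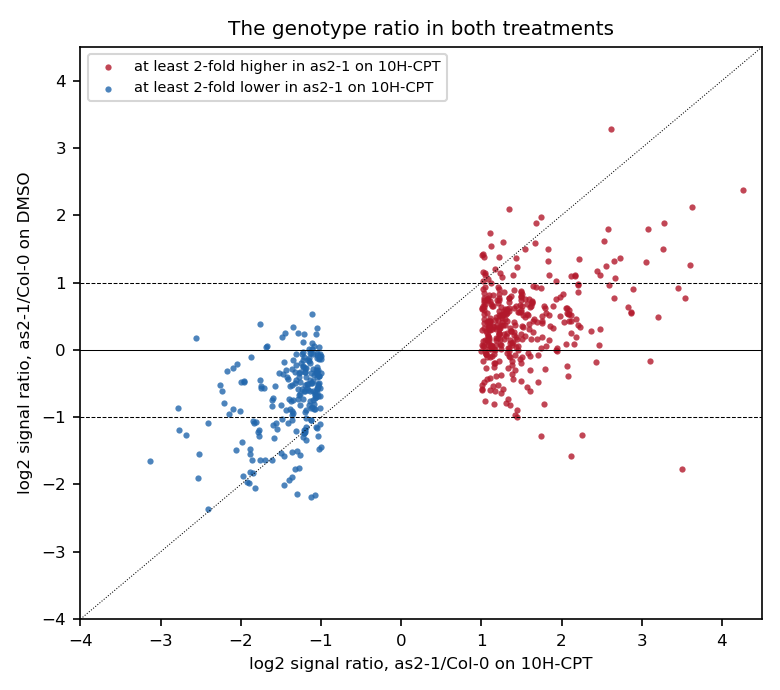
Log2 ratio of as2-1 to Col-0 on DMSO (vertical) against that on 10H-CPT (horizontal) for the 353 higher and 220 lower probe sets measured in both pairs; the dotted line marks equal ratios and dashed lines 2-fold on DMSO. Most points lie between the zero line and the dotted line, with medians on DMSO of 0.41 and -0.61.

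Among named genes past 2-fold on 10H-CPT, those whose genotype ratio differed most between the treatments were found on both sides. Genes within 2-fold on 10H-CPT were not ranked. BCAT4, described above, is such a gene, with a difference of log2 ratios of -2.50. Besides PUB19, AT5G53710, AT4G28140, AT3G28220 and AT1G80130, the largest positive differences in this ranking included that of AT1G43910 (259507_at). It had 666 in as2-1 against 149 in Col-0 on 10H-CPT and 272 against 256 on DMSO. For PUB19, AT5G53710 and AT3G28220 both DMSO signals were under the floor, so no genotype ratio was measured there. As deposited, these signals were 34.0 in as2-1 against 4.8 in Col-0 for PUB19. They were 29.2 against 10.8 for AT5G53710 and 12.4 against 38.0 for AT3G28220. The DMSO ratio of AT4G28140 is a bound. AT1G21000 (262803_at), a zinc-binding protein of the PLATZ family, had 445 against 173 on 10H-CPT and 161 against 284 on DMSO. This gene was higher in as2-1 with the inhibitor and lower without it. AT4G17470 and AT1G68500 likewise had log2 ratios of 1.61 and 1.57 on 10H-CPT and of -0.61 and -0.55 on DMSO, those of AT4G17470 being bounds set by the floor. For AT4G02360 the floor bounded them at 2.07 or higher on 10H-CPT and at -0.25 or lower on DMSO.

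On the negative side of this ranking, again only among genes past 2-fold on 10H-CPT, stood GH3.3, AT2G10940, EXPA8 and AT4G16980, already described, and 6 more genes. AT4G10270 (255807_at), of the family of wound-responsive proteins, had 89.1 in as2-1 against 285 in Col-0 on 10H-CPT and 802 against 774 on DMSO. AT4G27280 (253915_at), a calcium-binding EF-hand protein gene, had 105 against 266 on 10H-CPT and 465 against 368 on DMSO. Without the inhibitor the genotypes were nearly level for AT4G10270, while AT4G27280 was 1.26-fold higher in as2-1. In both genes as2-1 on 10H-CPT was the dimmest array. AT1G66070, AT3G12710, AT4G28310 and AT1G67050 had log2 ratios between -1.49 and -1.11 on 10H-CPT and between 0.19 and 0.53 on DMSO. With 1 array in each group these differences of ratios have no test.

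Of 144 genes with more than 1 probe set of their own, 5 had one past 2-fold on 10H-CPT, and their probe sets were not alike in size. For AT1G09660 both were lower in as2-1, with log2 ratios of -1.01 and -0.70. For AT1G23440 they were 1.25 and 0.42, and for AT5G54130 1.61 and 0.03, where the dimmer probe set was near the floor.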

How the data were processed

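Per the labels' protocols, total RNA was isolated from the shoot apices and converted to biotinylated cRNA, which was hybridised to Affymetrix arrays. The deposited values are signal intensities on a linear scale, 1 per probe set, made by the authors with MAS5 per the submitters' processing notes. The sources used here give no MAS5 version, scaling target or detection calls. Trimmed means, without the top and bottom 2%, were 198.3 to 198.5 on the 4 arrays.

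The arrays were rescaled to a common trimmed mean by factors of 0.9994 to 1.0006 (printed signals are as deposited), set to a floor at the 40th percentile (46.6), and compared as log2 ratios of as2-1 over Col-0. The threshold was 2-fold, with no test, p-value or SE, since each group has 1 array. That number limits the precision of every value. The steps were tested on simulated data. Those data held large changes in bright probe sets only, so ratios near 2-fold or at the floor were not checked. Python 3.11.15, numpy 2.4.6, pandas 2.3.3 and matplotlib 3.10.9 were used.

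Probe sets were named from the platform's gene table, updated by gene ID to RefSeq names of TAIR10.1 (13436 of 13513 matched). Genes named in the text are the 15 highest and 15 lowest ratios and the 10 largest and 10 smallest differences between treatments, among probe sets of 1 gene not ending in _s_at or _x_at. The differences were ranked only among those past 2-fold on 10H-CPT. Members past 2-fold of 26 lists (463 genes) and the polarity and meristem genes were added. Members and lists were chosen with earlier results of these data known. Promoter motifs were planned and not analysed here. The alternatives changed scaling, floor, threshold and probe set filter.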

Additional observations from a re-analysis of the deposited data

Results flagged for a closer look

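For 4 probe sets, none with a named gene here, the genotype difference was at least 2-fold in opposite directions in the 2 treatments, as2-1 being higher on 10H-CPT and lower on DMSO. With single arrays the reversal was not tested. Probe set 266142_at had 1284.5 in as2-1 against 113 in Col-0 with the inhibitor and 79.4 against 270.5 on DMSO, a difference of log2 ratios of 5.27. For 249732_at the signals were 1366 against 315 on 10H-CPT and 177 against 530 on DMSO, and the difference was 3.69. For 254232_at the difference was 3.52 and for 262226_at it was 3.03. Each was above the floor on all 4 arrays.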

How the results depend on the processing

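No paired analysis was possible because each group has 1 array. Signals as deposited, quantile normalization, both signals above the floor and dropping probe sets that end in _s_at or _x_at kept both counts past 2-fold within 1.5 times. With the floor at the 20th percentile 699 probe sets were higher and 491 lower in as2-1 on 10H-CPT, and at the 60th 196 and 104. With log2(signal + 50) in place of the floor they numbered 234 and 110, at 1.5-fold 1168 and 947, and at 3-fold 125 and 54. The share of higher ones was 55.2% to 69.8% over these alternatives.

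On DMSO 47 of the higher and 65 of the lower probe sets passed 2-fold in the same direction. With the floor at the 20th percentile in both pairs these counts were 105 and 99, and at the 60th 23 and 38. A 1.5-fold threshold in the DMSO pair gave 125 and 114, and a 3-fold one 13 and 21.

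With the floor at the 60th percentile the median log2 ratios were 1.04 for the cell wall list (0.22 as reported), -0.34 for the clock list (-1.42), 0.39 for the cold list (1.14) and 0.86 for the starch list (1.49). At the 20th they were 0.45 for the starch list and 0.27 for the heat shock list (-0.59), for which the lower floor let in more genes. Of 284 ratios of named probe sets under alternatives 37 moved by 1.5-fold or more, none past 2-fold changed sign, and 25 of them were smaller under the higher floor. Of the families, medians of the bZIP, U-box ligase and trichome birefringence-like genes, all near 0, changed sign under some setting; the others named did not. Family settings were chosen after seeing the data.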
